A study of Mus musculus with 2 samples.

Results

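The heat shock proteins and J-domain chaperones are the core of the machinery that folds, refolds and disposes of proteins in the cell. Their members were taken as every gene whose symbol in the deposited tables begins with Hspa, Hspb, Hspd, Hspe or Hsph and a digit, with Hsp90, or with Dnaja, Dnajb or Dnajc and a digit, and the values of all transcripts of a gene were summed. The rule found 72 of the 24411 genes, on 106 of the 35034 transcript rows, and used no measured value. They comprise 13 Hspa genes, 1 Hsph gene, 3 Hsp90 genes, 8 Hspb genes, the chaperonin pair Hspd1 and Hspe1, and 45 J-domain genes, of which 4 are Dnaja, 13 Dnajb and 28 Dnajc.

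RNA-seq was performed on DRG (dorsal root ganglion) neuron preparations from male C57BL/6 mice (C57BL/6J in the methods of the study) of 6 to 8 weeks. One group was injected with alum, an aluminium salt adjuvant, and the other with alum + KLH (keyhole limpet hemocyanin, a mollusc protein used as foreign antigen, 100 µg per injection), both intraperitoneally on days 0 and 14, and thoracic and lumbar DRGs were collected on day 28. The ganglia were digested with collagenase/dispase at body temperature, passed over an albumin cushion and depleted of B lymphocytes with beads. Each group is 1 library from the pooled neurons of 10 mice, so every value below is a single measurement without replicates, no p-value was computed, and none of the differences has a replicate check. The label of the control library calls it both naïve and alum alone, and it was treated as alum-injected.

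Values are TPM, a transcript abundance divided by transcript length and scaled to a sum of 1000000 in each library, so levels of different genes can be compared. The methods of the study give a minimum sequencing depth for the samples, but TPM keep no read counts, so the number of reads behind a single value is unknown. A gene above 3 TPM was called detected. For each gene a log2 ratio was taken, with 1 TPM added to each value and alum + KLH divided by alum, which understates the change of low genes, and it was set beside the SD of that ratio over the 500 genes closest in abundance. This neighbour SD describes how far genes of like level differ between the same libraries and is not an error between mice. All 10 neuronal markers were detected in both pools, with summed levels of 15126 TPM in alum and 14921 TPM in alum + KLH. The 6 satellite glia markers were also all detected, summing to 1639 and 1502 TPM, and 4 of 6 Schwann cell markers were, summing to 1488 and 1422 TPM, so the preparations also held glial RNA. None of the 6 macrophage or 5 B lymphocyte markers was detected (sums of 6.12 and 5.54 TPM, and of 1.55 and 1.00 TPM), and 1 of 4 endothelial markers was (sums of 10.1 and 7.24 TPM).

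Hsp70 proteins, encoded by the Hspa genes, bind exposed hydrophobic stretches of unfolded clients in a cycle of ATP binding and hydrolysis. J-domain proteins deliver the clients and start the hydrolysis, Hsp110 proteins such as Hsph1 exchange the nucleotide, Hsp90 completes the maturation of kinases and steroid receptors, small heat shock proteins of the Hspb group hold unfolding clients without ATP, and Hspd1 with its lid Hspe1 forms the folding chamber of mitochondria. Some members are made constantly and others are induced by the heat shock factor Hsf1, which binds heat shock elements, arrays of inverted repeats of the pentamer nGAAn, in front of its targets. In sensory neurons these proteins attend to long axons, and J-domain proteins such as Dnajc5 and Dnajc6 serve the synaptic vesicle and clathrin cycles.

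Between the pools, 3 members stood apart, and all 3 were lower in alum + KLH: Hspb1 and the near-identical, stress-inducible Hsp70 genes Hspa1a and Hspa1b. Because inducible members are known targets of Hsf1, the promoter stretches of these 3 genes are shown first, with that of the abundant mitochondrial gene Hspe1 beside them for comparison. Each run is the 250 bases before the annotated start of transcription, read 5′ to 3′ on the strand of the gene from RefSeq promoter windows on GRCm38.p6, whose primary assembly is the mm10 build of the deposited tables. Capitals mark each match to GAANNTTC or TTCNNGAA, the 2 ways in which a pair of inverted GAA units can meet. Both motifs are their own reverse complement, so a match reads on both strands, and where matches overlap, the capitals run on.
Hspa1a, chr17:34972157-34972406, minus strand: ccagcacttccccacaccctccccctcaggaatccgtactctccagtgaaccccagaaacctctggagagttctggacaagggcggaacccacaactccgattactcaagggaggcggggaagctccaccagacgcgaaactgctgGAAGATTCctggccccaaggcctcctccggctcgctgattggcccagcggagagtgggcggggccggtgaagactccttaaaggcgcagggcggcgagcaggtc
Hspa1b, chr17:34959239-34959488, minus strand: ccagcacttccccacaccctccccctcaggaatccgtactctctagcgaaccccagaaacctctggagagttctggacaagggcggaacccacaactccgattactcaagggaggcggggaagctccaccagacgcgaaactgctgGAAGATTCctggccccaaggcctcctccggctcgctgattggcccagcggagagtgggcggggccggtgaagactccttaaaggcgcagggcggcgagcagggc
Hspb1, chr5:135887669-135887918, plus strand: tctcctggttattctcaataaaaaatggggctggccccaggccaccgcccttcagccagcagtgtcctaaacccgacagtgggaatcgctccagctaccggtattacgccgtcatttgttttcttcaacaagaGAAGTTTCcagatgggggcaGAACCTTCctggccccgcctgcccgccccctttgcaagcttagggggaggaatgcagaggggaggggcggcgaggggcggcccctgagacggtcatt
Hspe1, chr1:55087898-55088147, plus strand: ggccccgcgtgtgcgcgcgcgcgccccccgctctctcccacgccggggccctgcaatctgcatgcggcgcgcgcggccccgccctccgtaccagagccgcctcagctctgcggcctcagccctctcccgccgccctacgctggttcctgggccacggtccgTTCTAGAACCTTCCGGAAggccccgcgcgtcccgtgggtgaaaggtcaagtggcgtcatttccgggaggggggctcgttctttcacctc

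The Hspa1a and Hspa1b stretches differ at 3 of 250 bases (98.8% identity) and hold the same single match, 104 to 97 bases before the start. Hspb1 has 2 separate matches, beginning 117 and 97 bases before its start. Hspe1 has 3 matches that overlap into 1 run of alternating units from 89 to 72 bases before its start, and since Hspd1 lies head to head with Hspe1 on chromosome 1, the same run also lies before Hspd1. Of the 58 members with a window in the RefSeq table, 14 held a match before at least 1 of their starts (24.1%). Among all 27025 genes of that table it was 14.5%, and among the 8601 with a window that were above 3 TPM in a pool it was 12.2%. The 14 are not all separate sequences, since Hspd1 and Hspe1 share 1 run and the stretches of Hspa1a and Hspa1b are near-identical. None of these shares was corrected for such repeats. The members without a window include Hspa8, Hsp90aa1 and Hsp90ab1, so the 24.1% does not cover them. These are the 3 highest members and held 53.5% of the summed TPM of the members in alum and 53.3% in alum + KLH. A match describes these letters only and says nothing of binding.

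**Figure D1:**
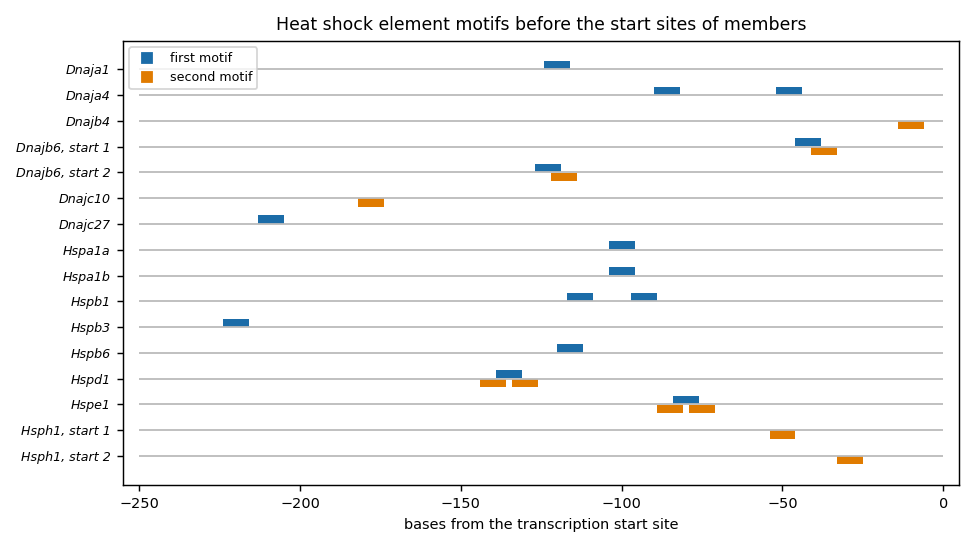
Position of the GAANNTTC motif (first motif, blue) and the TTCNNGAA motif (second motif, orange) in the 250 bases before each start site of the 14 members that hold one, in bases from the start. Genes with matches before 2 starts have 2 lines, and the overlapping matches of Hspd1, Hspe1 and Dnajb6 form continuous arrays.

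The motif was not restricted to the members that differed between the pools. All 3 of Hspa1a, Hspa1b and Hspb1 held it, although the stretches of Hspa1a and Hspa1b are near-identical. So did 10 of the other 46 members that were above 3 TPM in a pool and have a window. Among these 10 were Hspd1, Hspe1, Hsph1, Dnaja1, Dnaja4, Dnajb4 and Dnajb6. The log2 ratios of those 10 ran from -0.15 to 0.13 with a median of -0.02, and the 36 without the motif had a median of -0.01. Hspa1a, Hspa1b and Hspb1, which all hold the motif, were set aside by their ratio. These medians therefore do not compare all members with the motif to those without it. The stretches before both starts of Dnajb1, the J-domain partner usually named with inducible Hsp70, held neither motif in these windows.

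Together the members contributed 19343 TPM, or 1.93% of all transcripts, in the alum pool and 18985 TPM, or 1.90%, in the alum + KLH pool. Of the 72 genes, 60 were detected in the alum pool and 61 in the alum + KLH pool. In at least 1 pool 61 of the 72 exceeded 3 TPM, compared with 11648 of all 24411 genes. The Hspa family held 34.8% of the summed TPM of the members in alum and 35.3% in alum + KLH, and the 3 Hsp90 genes held 33.6% and 33.2%. The 45 J-domain genes accounted for 22.5% and 22.8%, the chaperonin pair for 5.63% and 5.37%, the Hspb genes for 1.83% and 1.64% and Hsph1 for 1.69% and 1.67%. A pair of genes, Hspa8 and Hsp90aa1, made up 42.5% and 43.5% of the total, and the 10 highest members 74.3% and 74.1%.

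**Figure D2:**
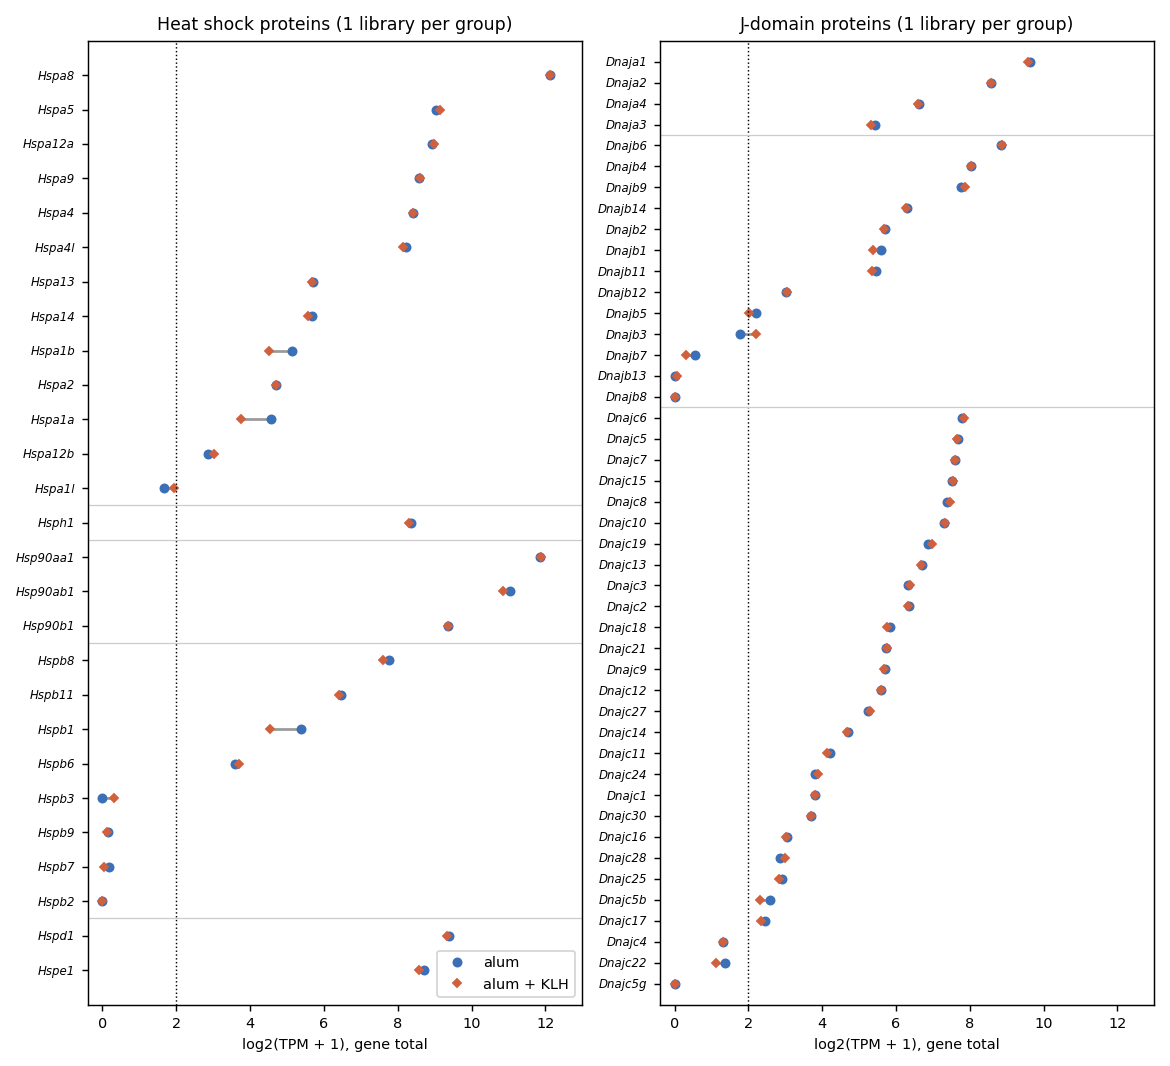
Level of all 72 members as log2(TPM + 1) of the gene total, in the alum pool (blue circles) and the alum + KLH pool (orange diamonds), 1 library each. Grey horizontal bars join the pools, thin lines separate families, and the dotted line marks 3 TPM; the long bars belong to Hspa1b, Hspa1a and Hspb1.

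Hspa8, the constitutive cytosolic Hsp70 that also strips clathrin from vesicles, was the highest member, at 4511 TPM in alum and 4459 TPM in alum + KLH. The pools differed by a log2 ratio of -0.02 against a neighbour SD of 0.16. Hspa5, the Hsp70 of the endoplasmic reticulum (BiP), was at 523.4 and 567.5 TPM (log2 ratio 0.12, neighbour SD 0.16). Hspa12a, a divergent family member abundant in brain, was at 490.4 and 506.8 TPM. Hspa9, the mitochondrial Hsp70 that pulls imported proteins through the inner membrane, was at 380.1 and 385.2 TPM. These constitutive genes thus differed by less than their neighbour SD.

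The nucleotide exchange factors of the Hsp110 group followed. Hspa4 stood at 340.0 and 338.1 TPM, Hspa4l at 296.7 and 280.0 TPM and Hsph1 at 326.5 and 317.7 TPM, in alum and alum + KLH respectively. All 3 were at like levels, and their log2 ratios lay between -0.08 and -0.01. Hspa13, Hspa14 and Hspa2 were lower, between 24.8 and 50.8 TPM in either pool, and Hspa12b was at 6.32 and 7.05 TPM. Hspa1l, the testis-enriched neighbour of Hspa1a, was below 3 TPM, at 2.21 and 2.81 TPM.

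Hspa1a was at 22.5 TPM in alum and 12.4 TPM in alum + KLH, and Hspa1b at 34.2 and 21.8 TPM. Both genes encode the stress-inducible cytosolic Hsp70, have a single exon, and lie on the minus strand of chromosome 17 (34969190 to 34972156 and 34956436 to 34959238 of GRCm38), with starts 12918 bases apart. The log2 ratio was -0.81 for Hspa1a (neighbour SD 0.32) and -0.63 for Hspa1b (neighbour SD 0.16), or 1.82-fold and 1.57-fold lower TPM in alum + KLH. They cannot be counted as separate observations. Of the 31-base words of the annotated Hspa1a transcript, 63.8% also occur in the Hspa1b transcript. Reads from those shared stretches were split between the pair by the quantification. Summed, the pair was at 56.8 TPM in alum and 34.2 TPM in alum + KLH, a log2 ratio of -0.72. Hspa8 exceeded this sum 79.5-fold in alum and 130.5-fold in alum + KLH.

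Among the small heat shock proteins, Hspb1 (Hsp27 in human nomenclature), which binds actin and intermediate filaments and is known in sensory neurons for supporting survival after axon injury, was at 40.5 TPM in alum and 22.3 TPM in alum + KLH. It lies on chromosome 5 (135887919 to 135889563, plus strand, 3 exons), has 1 transcript row, and its log2 ratio of -0.83 was 5.43 times its neighbour SD of 0.15. This was the lowest ratio of any member, and TPM was 1.81-fold lower in alum + KLH. Hspb8, which works with the cochaperone Bag3 in selective autophagy, was the highest small heat shock protein, at 214.8 and 192.9 TPM, with a log2 ratio of -0.15 within its neighbour SD of 0.21. Hspb11, an intraflagellar transport protein despite its symbol, was at 87.8 and 84.3 TPM, and Hspb6 at 10.997 and 12.1 TPM. The muscle and testis members were near nothing: Hspb2 was listed at 0 in both pools, Hspb3 at 0 in alum and 0.24 TPM in alum + KLH, and Hspb7 and Hspb9 at or under 0.14 TPM.

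Read against all genes, 3 of the 61 members that exceeded 3 TPM in either pool were lower in alum + KLH by 1.5-fold or more (4.92%), where 181 of 11648 genes were (1.55%). With 1 TPM added, no member was higher by 1.5-fold, compared with 1.0% of genes (in TPM alone, Dnajb3 was 1.51-fold higher), and none was 2-fold apart in either direction, compared with 1.64%. The 3 members have mean levels between 10 and 100 TPM. In that range, chosen after the values were seen, 3 of 26 members (11.5%) but 48 of 6144 genes (0.781%) were lower by 1.5-fold. Because the range was chosen with these 3 members known to lie in it, this contrast is no separate support. From the lowest ratio upwards among the 11648 genes, Hspb1 ranked 128, Hspa1a 130 and Hspa1b 160. With Hspa1a and Hspa1b counted as 1 gene, 2 of 60 members were lower, where 1.55% of all genes were.

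**Figure D3:**
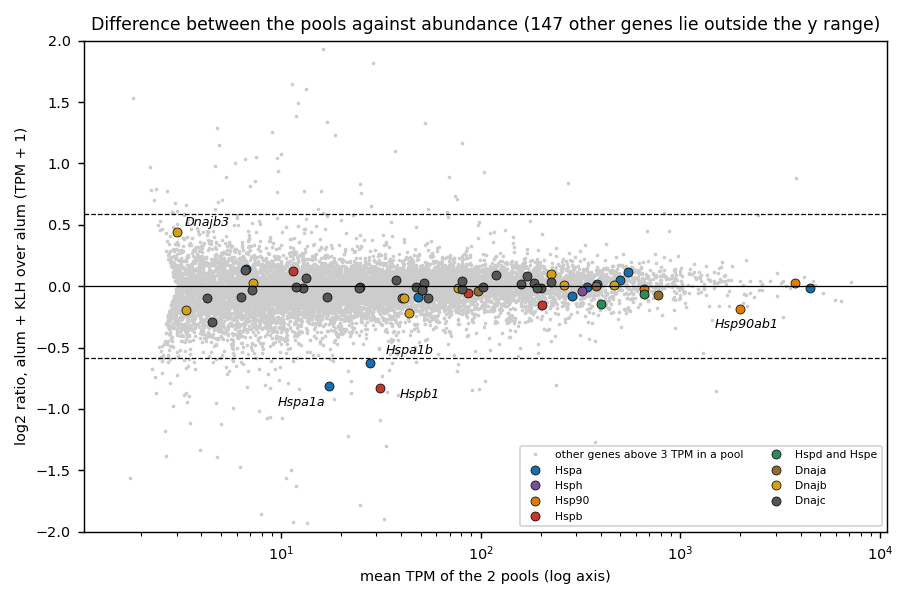
Log2 ratio of alum + KLH over alum (TPM + 1) against the mean TPM of the pools on a log axis, for genes that exceeded 3 TPM in either pool; coloured points are the 61 members by family and grey points other genes, 147 of which lie outside the plotted range. The dashed lines mark 1.5-fold, and Hspb1, Hspa1a and Hspa1b are the 3 members beyond them.

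Most of the remaining members were close to equal between the pools, as most genes were. Within 1.2-fold of each other were 56 of the 61 (91.8%), near the 88.4% of all genes. Besides the 3 named only Dnajb3 and Dnajc5b lay outside. Lower in alum + KLH by any amount were 40 of the 61 (65.6%), against 56.4% of all genes. The median log2 ratio was -0.02 over the members and -0.02 over all genes, and the median size of the difference, ignoring direction, was 0.05 over the members and 0.09 over all genes. The size depends on abundance, and with a mean of 100 TPM or more it was 0.03 over 26 members and 0.07 over 2155 genes.

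Of the Hsp90 genes, Hsp90aa1, the more inducible cytosolic form, was at 3719 TPM in alum and 3795 TPM in alum + KLH. Hsp90ab1, the constitutive cytosolic form, was at 2115 and 1858 TPM. The difference, a log2 ratio of -0.19, slightly exceeded the neighbour SD of 0.16, and the ratio of Hsp90aa1 to Hsp90ab1 was 1.76 in alum and 2.04 in alum + KLH. Hsp90b1, which resides in the endoplasmic reticulum and folds integrins and Toll-like receptors, was at 661.6 and 651.3 TPM. The chaperonin Hspd1 was at 670.6 and 641.5 TPM and its cofactor Hspe1 at 418.7 and 378.4 TPM. Hspe1 had a log2 ratio of -0.15 against a neighbour SD of 0.12, and Hspd1 of -0.06 against 0.15.

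The 4 Dnaja genes were all detected and all slightly lower in alum + KLH, where 56.4% of all genes were lower. Their log2 ratios ran from -0.10 to -0.0025, and a direction cannot be read from 4 genes. Dnaja1, the main J-domain partner of cytosolic Hspa8, was the highest of the 45 J-domain genes at 795 and 756 TPM. Dnaja2 was at 379.9 and 379.2 TPM, Dnaja4 at 97.8 and 95.2 TPM, and the mitochondrial Dnaja3 at 42.0 and 39.2 TPM. None of the 4 differed by more than its neighbour SD.

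Of the 13 Dnajb genes, 9 were detected in both pools. The highest were Dnajb6, a suppressor of polyglutamine aggregation, at 461.8 and 464.1 TPM, Dnajb4 at 260.5 and 262.4 TPM, and Dnajb9, which acts with Hspa5 in the endoplasmic reticulum, at 217.0 and 233.0 TPM. These were level between the pools, with log2 ratios of 0.01, 0.01 and 0.10. Dnajb14 was at 77.7 and 76.8 TPM and the neuronal Dnajb2 at 51.4 and 50.4 TPM. Dnajb1, the inducible J-domain partner of Hspa1a and Hspa1b, was at 47.1 TPM in alum and 40.3 TPM in alum + KLH. This log2 ratio of -0.22 came to 1.67 times the neighbour SD of 0.13, in the same direction as that of Hspa1a, and did not reach 1.5-fold. Dnajb3 crossed the threshold between the pools, at 2.40 and 3.62 TPM, and its log2 ratio of 0.44, the highest of any member, was within its neighbour SD of 0.65. Dnajb8 was listed at 0 in both pools, and Dnajb13 and Dnajb7 were at or under 0.46 TPM.

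Of the 28 Dnajc genes, 25 were detected in both pools. The highest were Dnajc6, which encodes the neuronal auxilin that recruits Hspa8 to uncoat clathrin vesicles, at 221.5 and 227.4 TPM, and Dnajc5, which encodes cysteine string protein of synaptic vesicles, at 202.3 and 199.7 TPM. Dnajc13, of endosomal sorting, was at 102.7 and 102.1 TPM. Dnajc7, a partner of Hsp70 and Hsp90, was at 193.0 and 191.0 TPM, Dnajc15 at 183.6 and 186.7 TPM and Dnajc8, found in spliceosomes, at 164.7 and 174.9 TPM. Log2 ratios of the 25 ran from -0.29 in Dnajc5b, at 5.05 and 3.94 TPM, to 0.13 in Dnajc28, at 6.25 and 6.94 TPM, with a median of -0.01. The testis-type Dnajc5g was listed at 0 in both pools, and Dnajc4 and Dnajc22 were between 1.18 and 1.60 TPM.

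Grouped by compartment, the 10 members assigned here to the endoplasmic reticulum summed to 1830 TPM in alum and 1881 TPM in alum + KLH, with a median log2 ratio of 0.01 and 5 higher and 5 lower. The 8 assigned to mitochondria summed to 1840 and 1783 TPM, with a median of -0.04. Of them 3 were higher and 5 lower, where 56.4% of all genes were lower. None of these 18 genes was 1.5-fold apart, where 1.55% of all genes were lower and 1.0% higher by that much, so a count of 0 among so few genes is near the background. The endoplasmic reticulum and mitochondrial sets thus had like summed levels.

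For genes with several transcripts, totals could hide an exchange between rows. Of 19 members above 3 TPM with 2 or more rows, 3 had a row whose part of the gene total moved by at least 10 percentage points between the pools (15.8%), compared with 22.5% of 3504 genes. In Dnajc6, row NM_001164584 was at 141.1 TPM in alum and 89.0 TPM in alum + KLH, or 63.7% and 39.1% of the gene. Row NM_198412 went the other way, from 56.3 to 108.0 TPM, or 25.4% and 47.5%. These transcripts start at different positions of chromosome 4 (101507871 and 101496648), have 19 and 20 exons, and share most of their sequence, since 2.47% and 3.53% of their 31-base words occur in no other annotated transcript of the gene listed here. In Dnajc19, a component of the mitochondrial import motor, row NM_026332 was at 43.6 and 25.3 TPM and row NM_001286973 at 60.3 and 83.1 TPM, and 8.59% and 4.99% of their words are their own. Dnajc5b showed the third such shift, with NM_001163536 at 2.89 TPM in alum and 0 in alum + KLH, at a gene total of 5.05 and 3.94 TPM. This row and NM_025489 match 1 transcript of the annotation used here, so how far their sequences differ was not examined. Rows of the synaptic vesicle gene Dnajc5 moved less as parts of the total, with NM_016775 at 91.3% and 85.7%. Its row NM_001271584 was at 12.4 TPM in alum and 24.8 TPM in alum + KLH, or 6.14% and 12.4% of the gene. The totals of Dnajc6, Dnajc19 and Dnajc5b were each within their neighbour SD of being equal.

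**Figure D4:**
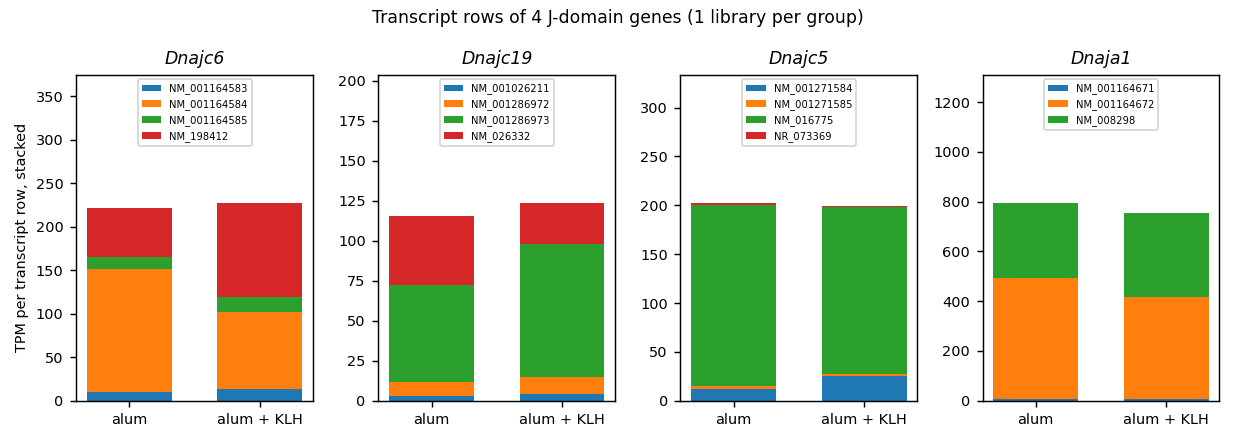
TPM of each transcript row, stacked to the gene total, in the alum and alum + KLH pools for Dnajc6, Dnajc19, Dnajc5 and Dnaja1. In Dnajc6 and Dnajc19 the 2 largest rows trade places or proportions between the pools while the height of the bar is nearly kept.

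The partners of these chaperones were read from lists of genes that the rule does not include. Of 7 heat shock factor genes and their binding proteins, 3 were above 3 TPM in both pools. Hsf1 itself was at 3.38 TPM in alum and 2.29 TPM in alum + KLH (log2 ratio -0.41, neighbour SD 0.78), and Hsf2 was far higher at 85.1 and 82.3 TPM. Hsbp1, a negative regulator of Hsf1, was at 218.0 and 226.2 TPM, and its relative Hsbp1l1 at 118.2 and 115.6 TPM. None of the 4 genes of this list above 3 TPM in a pool was 1.5-fold apart, and their median log2 ratio was -0.04.

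Of the 14 partners of Hsp70, 1 was lower by 1.5-fold, where 1.55% of all genes were, the nucleotide exchange factor Hspbp1, at 4.79 and 2.62 TPM, with a log2 ratio of -0.68 against a neighbour SD of 0.52. The 3 highest were St13 at 316.7 and 307.7 TPM, Bag1 at 296.7 and 326.4 TPM and Bag3, itself a known Hsf1 target, at 132.5 and 124.4 TPM. The ubiquitin ligase Stub1 was at 16.3 and 11.7 TPM, a log2 ratio of -0.44. The list as a whole had a median of -0.04, with 10 lower and 4 higher, where 56.4% of all genes were lower.

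No partner was 1.5-fold apart among the 16 Hsp90 cochaperones above 3 TPM in a pool or the 15 chaperonin and prefoldin genes. With 1.55% of all genes lower and 1.0% higher by 1.5-fold, a count of 0 in lists of this size is near the background. The cochaperones were split into 8 lower and 8 higher. Of the chaperonin and prefoldin genes 10 were lower and 5 higher, where 56.4% of all genes were lower. Ptges3 (p23) was the highest Hsp90 cochaperone at 816 and 864 TPM, followed by Sugt1 at 327.6 and 341.1 TPM and Chordc1 at 240.0 and 259.2 TPM. Stip1, which hands clients from Hsp70 to Hsp90, was at 179.7 and 154.1 TPM (log2 ratio -0.22, neighbour SD 0.16). Cdc37l1 was higher in alum + KLH, at 132.5 and 150.65 TPM (log2 ratio 0.18, neighbour SD 0.12). Cct8 was the highest chaperonin subunit at 613.7 and 598.4 TPM, the prefoldin subunit Vbp1 was at 588.5 and 616.3 TPM and Cct6a at 532.9 and 510.3 TPM. Pfdn2 had the lowest ratio of its list, -0.30 against a neighbour SD of 0.13, at 95.8 and 77.5 TPM.

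Cryab, a small heat shock protein with another symbol, was also lower in alum + KLH. It was at 36.3 TPM in alum and 25.4 TPM in alum + KLH, with a log2 ratio of -0.50 that was larger than its neighbour SD of 0.16 and short of 1.5-fold. The J-domain genes Sec63 and Gak, which likewise have other symbols, were level at 94.6 and 90.3 TPM and at 40.5 and 38.8 TPM.

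**Figure D5:**
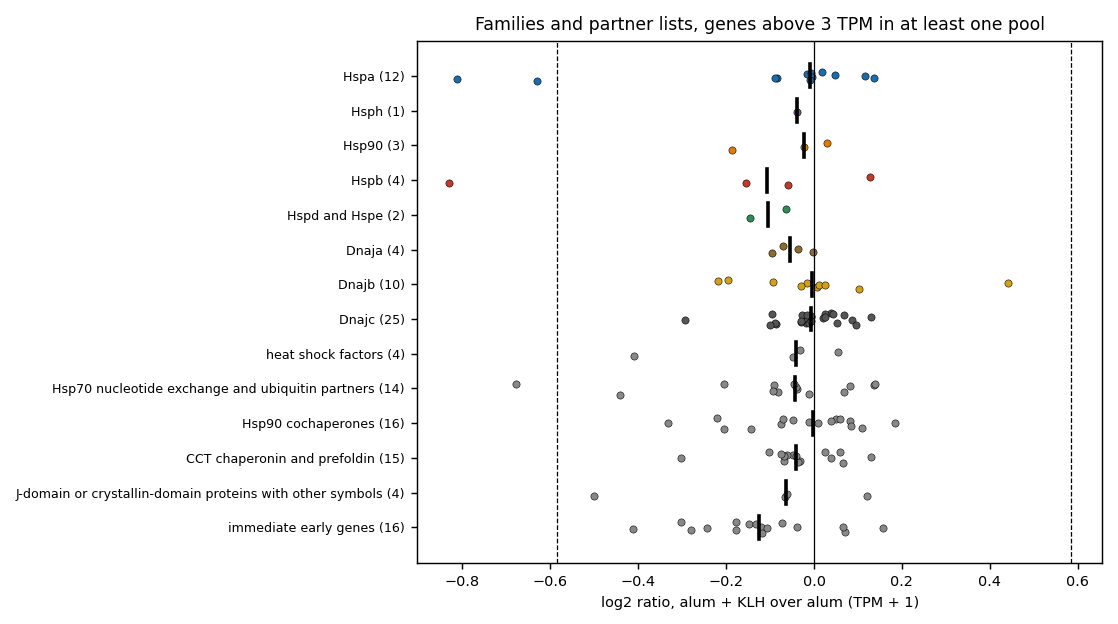
Log2 ratio of alum + KLH over alum (TPM + 1) for genes that exceeded 3 TPM in either pool, by member family (coloured) and partner list (grey), with the number of genes in brackets; vertical bars are medians and dashed lines mark 1.5-fold. Beyond the lines lie only Hspb1, Hspa1a, Hspa1b and, of the partners, Hspbp1.

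Genes outside the family were also read beside Hspa1a, Hspa1b and Hspb1. Of the 16 immediate early genes above 3 TPM, which respond within minutes to stimulation or handling, 13 were lower in alum + KLH, where 56.4% of all genes were, with a median log2 ratio of -0.13 against -0.02 over all genes and a summed list of 1392 and 1279 TPM, and none reached 1.5-fold. Fos was at 454.3 and 417.5 TPM, Atf3 at 238.0 and 219.1 TPM, Egr1 at 149.4 and 142.0 TPM and Jun at 116.9 and 94.5 TPM. All 6 satellite glia markers and 4 of the 5 Schwann cell markers above 3 TPM in a pool were lower as well, with medians of -0.07 and -0.06 and the lowest ratio, -0.52 (neighbour SD 0.13), in Apoe. So were 8 of the 10 neuronal markers, with a median of -0.08 and the lowest ratios in Rbfox3, at -0.44 (neighbour SD 0.13), and Prph, at -0.27 (neighbour SD 0.18). The other 2 were higher, Elavl4 at 0.19 (neighbour SD 0.16) and Snap25 at 0.08 (neighbour SD 0.16). With 1 TPM added, none of these markers was 1.5-fold apart. The part of handling, of glial content or of neuronal content in the difference was not tested. In pooled tissue, fewer cells of a type and less RNA per cell cannot be told apart, and with 1 library per group immunization and library cannot be either.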

How the data were processed

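The 2 libraries were prepared by the authors with a stranded mRNA kit, sequenced as paired-end reads, trimmed with cutadapt and quantified by kallisto on annotated mouse transcripts, with mm10 as the build; tool versions are not given in the sources used here. The deposited files give TPM for each RefSeq transcript, each library summing to 1000000, and contain no counts, so the reads behind a value and its counting error are unknown, although the methods of the study give a minimum depth per sample.

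TPM were summed per gene, and log2 ratios were computed with a pseudocount of 1 TPM. Genes that exceeded 3 TPM in either pool, the threshold of the study, made up all genes in comparisons. Neighbour SDs used the 500 closest of these genes. With 1 library per group no test was made. Near-identical transcripts were compared by shared 31-base words of GENCODE M21 transcripts that correspond to deposited rows, and positions came from the same annotation (GRCm38). Promoter windows came from RefSeq (58 of 72 members matched), and the 50 bases after the start were left out.

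Members given with values were the 5 highest of each family, those past 1.5-fold, the 5 highest and 5 lowest ratios and those listed at 0, and of each partner list the 3 highest and any past 1.5-fold, except 1 gene that is not reported here. The other genes given with values, among them Stub1, Stip1, Pfdn2, Cryab, Hsf1, Jun, Apoe, Rbfox3 and Prph, were chosen after their values were seen. Those named here were all lower in alum + KLH, so they do not represent their lists. Cdc37l1, Elavl4 and Snap25, also chosen after their values were seen, were higher. The members, lists and thresholds were chosen with earlier results of these data known. The 1.2-fold limit, the 10 to 100 TPM range, the compartments, the row comparison and the summing of Hspa1a with Hspa1b were chosen after the values were seen. Alternatives were other pseudocounts (0.1 and 0.5 TPM), other thresholds, the highest row standing for its gene, scaling to the median ratio or to Hprt, and protein-coding rows only. Calculations used Python 3.11.15, numpy 2.4.6, pandas 2.3.3 and matplotlib 3.10.9, and were tested on simulated data.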

Additional observations from a re-analysis of the deposited data

How the results depend on the processing

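Under the 9 alternatives fixed at the start, Hspa1a, Hspa1b and Hspb1 were lower in alum + KLH by at least 1.5-fold each time, no member was higher by 1.5-fold on the scale with the pseudocount and none was 2-fold apart. Their log2 ratios ranged from -0.89 to -0.72, from -0.72 to -0.61 and from -0.91 to -0.81 in that order, where -0.72 is the value of Hspa1a and Hspa1b summed, an alternative chosen after seeing the data. Other thresholds and the highest row could not change these ratios, since all 3 genes exceed every threshold used and have 1 transcript row each. When the highest row stood for a gene, Dnajc6 joined Hspa1a, Hspa1b and Hspb1 at -0.66, Dnajc19 moved to 0.46, Dnaja1 to -0.24 and Dnajc5b to 0.31, each by more than its neighbour SD. In these genes the part of the total held by that row differed between the pools. Whether the use of transcripts differed was not tested. The other 364 of 368 values of single genes under an alternative stayed within the neighbour SD of the value in the report. Scaling shifts all ratios nearly alike, by less than the neighbour SD of any member, so it could not have moved a value past that limit. Expressing TPM relative to Hprt (989.3 and 1049 TPM) moved the median log2 ratio of all genes to -0.10. The share of all genes lower by 1.5-fold, against which the members were read, was 0.681% with protein-coding rows only and 2.38% with the highest row. A move of the median over members was judged against the SD of 0.19 among them, and family shares and counts against 1.5-fold. No paired analysis was possible because each group has 1 library. With 1 library per group no difference has a replicate check, values near 3 TPM rest on an unknown number of reads, and no interval can be given.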
